A study of Bos taurus with 4 samples.

Results

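CD antigens are cell-surface proteins first defined by antibodies against leukocytes, the white blood cells. Some of them, such as the T cell receptor chains of the CD3 complex, are restricted to leukocytes, and others lie on many cells. Spermatozoa carry several: CD9 and CD81 are tetraspanins, small membrane organisers known from sperm and egg membranes, and CD46, CD55 and CD59 are regulators that hold back complement. Semen can also hold leukocytes, so that transcripts of restricted members in a sperm RNA sample are commonly read as a sign of them.

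The members were the sample probes of a bovine array whose gene name has the form of a CD number, together with PTPRC, the gene of the pan-leukocyte phosphatase CD45, and LYZ, the gene of the antibacterial enzyme lysozyme. This gave 73 genes of the 32429 on the array, measured by 155 of its 51282 probes. Total RNA came from Percoll-selected spermatozoa of Murrah buffalo breeding bulls, with 2 pools per fertility group, high-fertile and low-fertile. A pool held RNA from a pair of bulls and was hybridized with Cy3 to 1 array. The bulls had been classed by their field conception rate, and no treatment was given in either group. Buffalo RNA was measured on probes designed for cattle, and which bulls entered which pool is not given in the sources used here. The p-values therefore rest on 2 pools per group. For the variance of each probe the fit also draws on the spread of all tested probes, and the standard errors include this.

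Of the 73 genes, 46 were classed as leukocyte-restricted, 9 as known on spermatozoa and 17 as broad or of other cells, and CD164L2 was left unclassed. The classes come from general knowledge of these genes and not from the arrays. A gene was read from its brightest probe. The scanner software marks a spot as well above background when its signal clearly exceeds the local background, and a gene was tested when this held on both arrays of at least 1 group. Signals are processed intensities of the scanner, with no unit, before scaling between arrays. Log2 fold changes are low-fertile minus high-fertile after the 75th percentile of each array was subtracted.

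Low-fertile pool 2 stood apart in detection, with 13033 probes well above background against 23228 to 25642 on the other arrays. The standard deviation of its negative control spots was 125.7, against 1.94 to 27.8. The 75th percentile of its signals was 32.7, against 36.7 to 37.1. High-fertile and low-fertile arrays lay in different rows of 1 slide, so the row of the slide and the fertility of the bulls cannot be told apart. Of 18 sperm and spermatid genes, ACR, ODF1, PRM1 and TNP1 were well above background everywhere, while 6, among them AKAP4, IZUMO1 and CRISP2, were so on no array. PRM1, a protamine that packs sperm DNA, was higher in low-fertile pools, with a log2 fold change of 0.67 and an adjusted p of 0.0231. Of 20 further leukocyte genes outside the CD names, 9 passed the mark on all 4 arrays and 2 on none, where 32.6% of all genes passed on all 4. In limma 0 of the 16 tested passed the threshold, against 9.6% higher and 16.3% lower over all genes tested. At an unadjusted p under 0.05 in limma there were 3 of the 16, against 6753 of all 16549 genes tested. Summed over these 20 genes and divided by the 75th percentile of each array, the signals were 25.9 and 27.4 on high-fertile and 24.9 and 27.3 on low-fertile arrays, and the groups overlapped. The unscaled sums were 951.4 and 1016 against 923.3 and 889.9. Of 8 epithelial genes, 6 were well above background on all 4 arrays, against the same 32.6% of all genes. In limma 0 of these 6 passed the threshold and 2 had an unadjusted p under 0.05, against the shares over all genes tested given above. Of 6 red cell genes, 3 were tested. HBB, a chain of haemoglobin, was tested through the low-fertile arrays alone and passed as higher there, with signals of 20.4 and 29.0 against 54.1 and 54.1, where 9.6% of all genes tested did.

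The results for PTPRC, CD3D and LYZ turn on a single bright probe each, so these 3 sequences are shown first. Each line gives 30 of the 60 bases of the probe, with coordinates of the whole probe in the cattle build Btau_3.1 of the array files. Capitals mark the repeat of 12 bases discussed below in PTPRC, and in CD3D and LYZ the longest run shared with a probe of another gene. Bases in lower case can be shared as well.
PTPRC, plus strand of chr16:76032484-76032543: tgtagtcttTGTGTGTGTGTGtgtgtgtgt
CD3D, minus strand of chr15:27451220-27451279: acagtgacttcccTGGCAGTCCAGTGGTTA
LYZ, minus strand of chr5:48057332-48057391: ccCCCACTCCAGTACTCTTGCCTGGAAAat

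Windows of the probes of 4 further members that differed between the groups or are known on spermatozoa are given for reference, and none of them shared a run of 16 bases with a probe of another gene.
CD6, plus strand of chr29:39085150-39085761: tgtacagataaacgcgatttgaaattggtg
CD63, plus strand of chr5:62096795-62096854: actcctgctgcgtcaatatcactcataact
CD9, minus strand of chr5:110988644-110989536: aaagaatttaattgacagcttgaaaacgag
CD83, minus strand of chr23:43226580-43226639: ctggacaagatcccatggtttctgcttttt
The coordinates of CD6 and CD9 span more than the 60 bases of a probe, as for a probe that crosses an intron. Such spans held for 30 of the 155 probes.

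Signals of both leukocyte-restricted genes and genes known on spermatozoa were found. Of the 73 members, 47 were tested, 33 passed the mark on all 4 arrays, 18 on no array and 8 on some arrays without meeting the rule. Among the 46 leukocyte-restricted genes, 33 were tested, 21 passed the mark on all 4 arrays and 10 on none. The 9 genes known on spermatozoa gave 5 tested genes, all 5 of them with the mark in every pool, and 3 genes with it in none. The 17 broad genes gave 8 tested genes and 5 on no array. Over all genes of the array, 51.0% were tested and 32.6% had the mark in every pool, against 71.7% and 45.7% of the leukocyte-restricted genes. Over all probes, 24.5% passed the mark on all 4 arrays and 42.7% on none. Among the probes of the members these shares were 26.5% and 45.2%. A gene with more probes has more chances to reach the mark. By probe, 47.4% of leukocyte-restricted probes were tested and 29.9% had the mark in every pool, against 41.0% and 24.5% over the array. Of the 29 leukocyte-restricted probes with the mark in every pool, 6 were of CD163L1 alone, a gene with many near-identical copies in cattle.

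**Figure D1:**
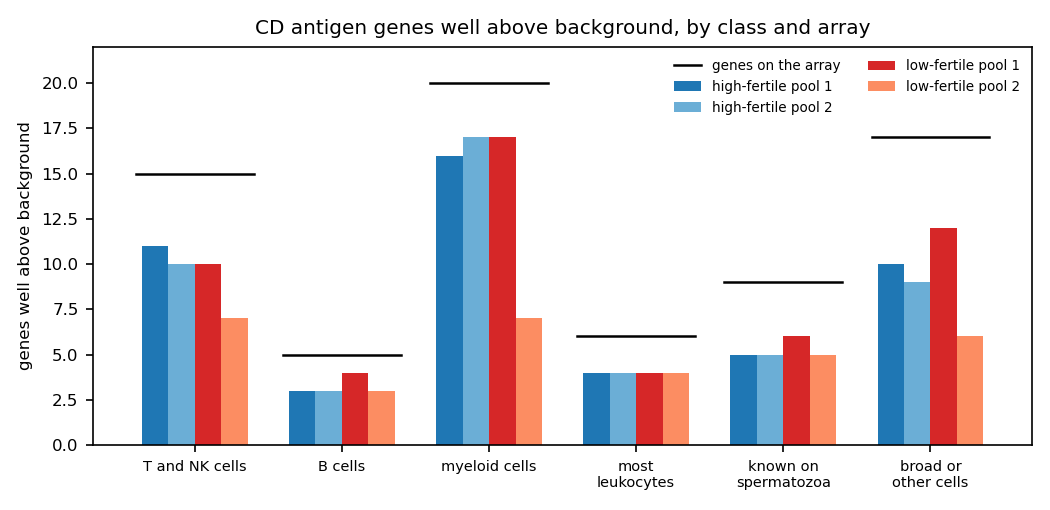
Number of genes (vertical axis) whose brightest probe was well above background, by class of CD antigen (horizontal axis) and array (bars), with the genes on the array as black lines. Of the 20 myeloid genes, 16 or 17 were counted on the other arrays and 7 on the array of low-fertile pool 2.

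T cell genes differed in detection. CD2, an adhesion receptor of T and NK cells, had signals of 96.1 and 100.8 in high-fertile and 103.8 and 95.6 in low-fertile pools. CD3G, a chain of the T cell receptor complex, was also well above background on all 4 arrays at its brightest probe. The sister chain CD3E and the co-receptor chain CD8A were well above background on no array at either of their probes. CD79A and CD79B, which carry the signal of the B cell receptor, were well above background on all 4 arrays. CD48, CD69, CD80, CD96, CD101, CD180, CD1E and CD244 completed the 10 leukocyte-restricted genes whose brightest probe was well above background on no array. CD5, CD72 and CD177 were well above background on some arrays.

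Past an adjusted p of 0.05, 5 members were higher and 4 were lower in low-fertile pools. The background over all genes was 9.6% higher and 16.3% lower, and 5 and 4 of 47 are near or below it. On genes well above background on all 4 arrays, where the background was 13.2% higher and 9.32% lower, 5 members were higher and 1, CD3D, was lower. The median log2 fold change of the 47 tested members was 0.10, against 0.01 over all genes tested. On genes with the mark in every pool it was 0.14 for members and 0.15 for all genes. By class, on the same genes with the mark in every pool, it was 0.10 for the leukocyte-restricted, 0.40 for the 5 genes known on spermatozoa and 0.12 for the broad genes. Over all tested broad genes it was -0.10. Members past the threshold were also counted with 1 pool left out at a time, which leaves 1 pool in its group. The fewest members passed without high-fertile pool 2. With high-fertile pool 1 left out, 1 was higher and 2 were lower, against 3.38% and 10.3% of probes. Without low-fertile pool 1, 2 were higher and 3 lower, against 6.6% and 17.1%. Without low-fertile pool 2, 1 was higher and 3 were lower, against 4.24% and 14.3%.

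**Figure D2:**
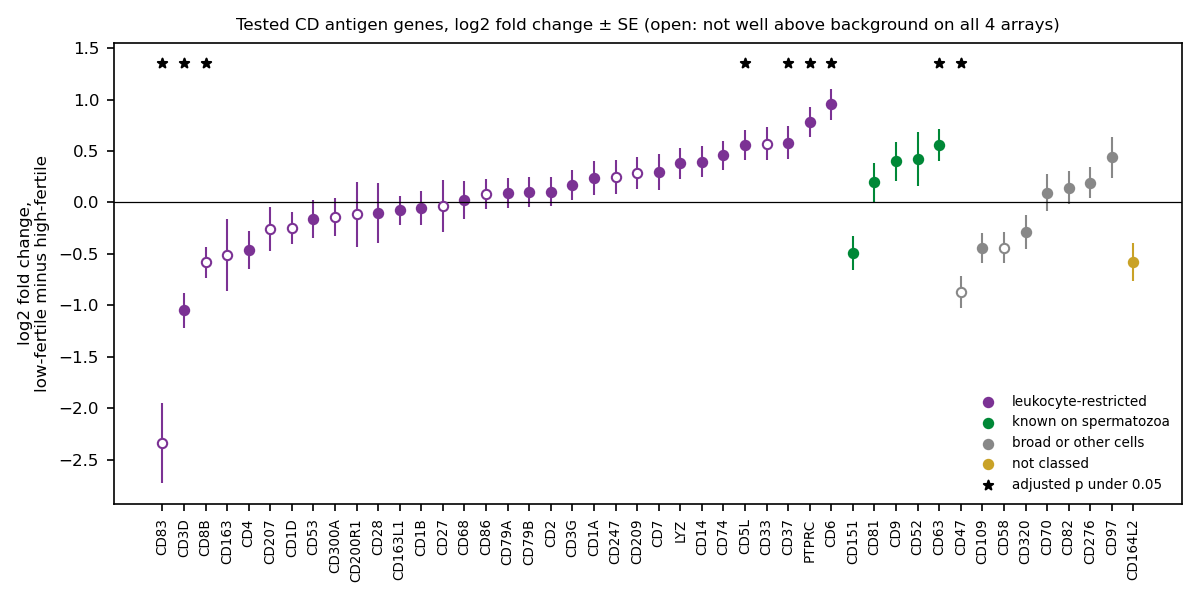
Log2 fold change, low-fertile minus high-fertile (vertical axis), with its standard error as bars, for 46 of the 47 tested genes (horizontal axis) by class. Open circles are genes not well above background on all 4 arrays, and stars mark an adjusted p under 0.05. The genes run from -2.33 (CD83) to 0.95 (CD6).

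Among the 33 tested leukocyte-restricted genes, 4 were higher and 3 lower, near or below the 9.6% and 16.3% over all genes. In these bulk samples, a difference in the number of cells of a type and a difference in RNA per cell cannot be told apart. CD6, a scavenger receptor family protein of T cells, had signals of 112.4 and 106.3 in high-fertile pools against 201.9 and 196.8 in low-fertile pools. The groups did not overlap, and the log2 fold change was 0.95 ± 0.15 (SE, n = 2 pools per group), a fold of 1.94 with an adjusted p of 0.00922. PTPRC gave 6981 and 7126 in high-fertile pools against 11503 and 11388 in low-fertile pools at its brightest probe. Both low-fertile pools were higher, by 0.78 ± 0.15 on the log2 scale, with an adjusted p of 0.0160. CD37, a tetraspanin of mature B cells and other leukocytes, rose from 40.9 and 45.1 to 59.3 and 61.7, a log2 fold change of 0.58 ± 0.16 with an adjusted p of 0.0492. CD5L, a protein secreted by macrophages, rose from 34.2 and 35.9 to 49.4 and 48.0, a log2 fold change of 0.56 ± 0.15 with an adjusted p of 0.0414. CD37 and CD5L lay close to the threshold, and neither passed with any 1 of the 4 pools left out. PTPRC passed only without low-fertile pool 1, with adjusted p values of 0.0540 to 0.0771 in the other 3 fits.

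CD3D, a chain of the T cell receptor complex, fell. Its signals were 4982 and 5426 in high-fertile pools against 2271 and 2470 in low-fertile pools, a log2 fold change of -1.05 ± 0.17 with an adjusted p of 0.0102. CD83, a marker of mature dendritic cells, had 69.4 and 72.3 in high-fertile pools against 21.4 and 8.18 in low-fertile pools. It was not well above background in low-fertile pool 2. Its log2 fold change was -2.33 ± 0.39 with an adjusted p of 0.0111, and ran from -2.94 without low-fertile pool 1 to -1.73 without low-fertile pool 2. CD8B, the second chain of the CD8 co-receptor, had 23.5 and 21.6 against 14.6 and 13.8. It was not well above background in either low-fertile pool. As measured, CD8B was 1.497-fold lower there, with an adjusted p of 0.0388. It did not pass with any 1 pool left out. CD83, CD8B and CD47, a broad gene described below, were tested through the high-fertile arrays alone. Of the 47 tested members, 14 were not well above background on both low-fertile arrays, and such a gene can enter the test only by being bright in high-fertile pools.

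The remaining leukocyte-restricted genes that are standard markers did not pass in the fit reported. CD4, the helper T cell co-receptor, had 1087 and 1285 in high-fertile and 969.0 and 673.9 in low-fertile pools at its brightest probe, with an adjusted p of 0.121. It passed as lower under spike-in scaling, with a log2 fold change of -0.88 and an adjusted p of 0.0408, and with a trend of the variance on intensity, with 0.0468. CD79A had 473.2 and 465.8 against 478.5 and 466.6, with an adjusted p of 0.652. CD68, a lysosomal protein of macrophages, had 247.2 and 312.9 against 262.5 and 271.3, and its groups overlapped. CD163, a haemoglobin scavenger receptor of macrophages, had 47.4 and 26.1 against 30.6 and 17.7, also with overlap. LYZ had 13584 and 12423 against 16233 and 15621, higher in both low-fertile pools, with a log2 fold change of 0.38 ± 0.15 and an adjusted p of 0.117. CD74, the invariant chain of MHC class II, gave a log2 fold change of 0.46 ± 0.14 with an adjusted p of 0.0665. CD33, a sialic acid receptor of myeloid cells, gave 0.57 with an adjusted p of 0.0511, and both of its probes carry an accession that the current annotation lists under the symbol LOC100138951.

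Of the genes known on spermatozoa, CD63 alone passed in the fit reported, 1 of 5 against 13.2% higher over all genes with the mark in every pool. CD63, a tetraspanin of lysosomes and of extracellular vesicles, had 27.5 and 32.2 in high-fertile pools against 44.3 and 38.4 in low-fertile pools, a log2 fold change of 0.56 ± 0.15 with an adjusted p of 0.0471. With any 1 of the 4 pools left out it did not pass. CD9 had 85.3 and 64.2 in high-fertile pools against 97.8 and 86.4 in low-fertile pools, with a log2 fold change of 0.40 ± 0.19 and an adjusted p of 0.170. CD81 had 35.8 and 35.7 against 35.6 and 41.8. CD151, a tetraspanin that binds laminin-binding integrins, had 62.1 and 70.8 against 43.6 and 45.6, with both low-fertile pools below both high-fertile pools and an adjusted p of 0.0823. It passed as lower when only probes with the mark in every pool were tested, with an adjusted p of 0.0407, and under spike-in scaling, with 0.0115, where CD63 did not pass. CD52, a short GPI-anchored peptide of lymphocytes and of the epididymis, from which sperm acquire it, had 21.9 and 30.1 against 28.0 and 37.4. Its groups overlapped.

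CD46, CD55 and CD59, the complement regulators among the members, gave little signal. CD46, a cofactor in the inactivation of complement C3b that lies on the acrosomal membrane, was well above background on no array at any of its 6 probes. CD55, which speeds the decay of the C3 convertase, and CD44, a receptor of hyaluronan, were also well above background on no array. CD59, an inhibitor of the membrane attack complex, reached the mark in low-fertile pool 1 only, with signals of 14.96 and 13.7 in high-fertile and 18.3 and 12.2 in low-fertile pools. Of 8 further complement regulators outside the CD names, 4 were tested and CFI, a protease that cleaves C3b with CD46 as cofactor, was lower, from 91.5 and 103.8 to 63.4 and 49.6. This is 1 of 4 genes, against 16.3% over all genes.

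**Figure D3:**
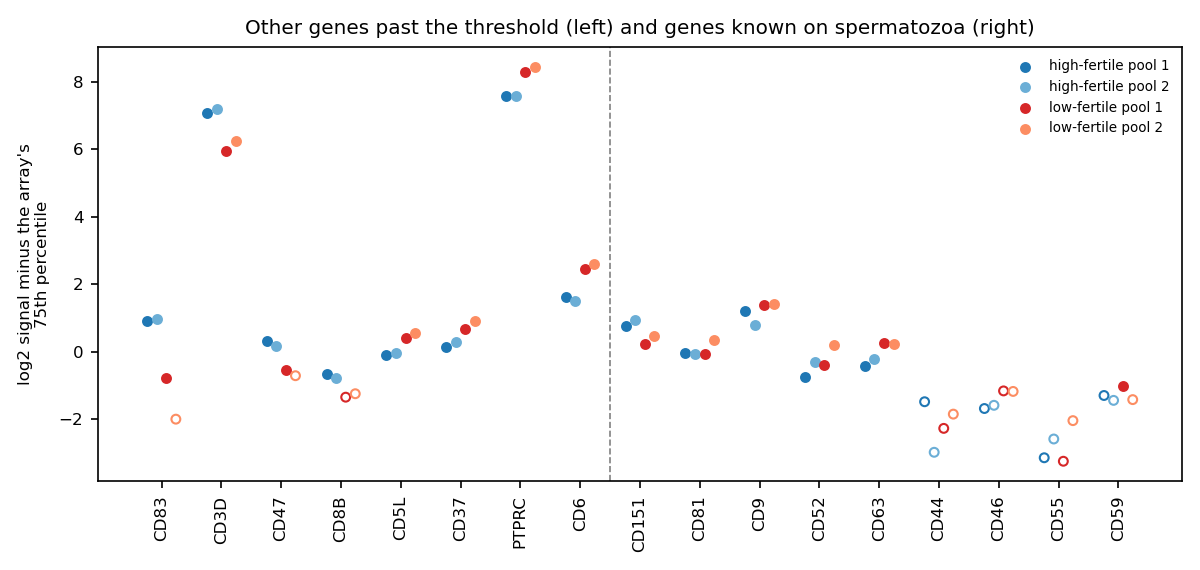
Log2 signal minus the 75th percentile of the array (vertical axis) in each pool for genes past the threshold (left of the dashed line) and for genes known on spermatozoa (right of it, CD63 among them). Filled circles are well above background and open circles are not. CD44, CD46 and CD55 are open in every pool.

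Among broad genes, CD47 fell. CD47, the signal by which cells resist being engulfed, had 45.8 and 41.5 in high-fertile pools against 25.4 and 19.98 in low-fertile pools, a log2 fold change of -0.87 ± 0.15 with an adjusted p of 0.0136. Low-fertile pool 2 was not well above background. With normexp background correction, which models the background and adds an offset, the log2 fold change of CD47 was -0.22. Folds of other called genes shrank as well, to 0.20 for CD37, 0.20 for CD5L, 0.24 for CD63 and -0.78 for CD83, while that of CD3D was -1.04. The other 7 tested broad genes (CD58, CD70, CD82, CD97, CD109, CD276 and CD320) did not pass. CD36, CD38, CD99, CD99L2 and CD164 were well above background on no array, and CD34, CD40, CD200 and CD302 only on some.

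Of 25 tetraspanins outside the CD names, 17 were tested, 1 was higher and 3 were lower, against 9.6% higher and 16.3% lower over all genes, which is near the background. TSPAN4 rose with a log2 fold change of 0.71, while TSPAN3 and TSPAN31 fell, with -0.80 and -0.65. TSPAN13 was tested through the high-fertile arrays alone. As measured, it was 2.11-fold lower in low-fertile pools, where it was not well above background. Of 6 partners of tetraspanins, 3 were tested and PTGFRN, a partner of CD9 and CD81, was lower, from 126.5 and 136.4 to 68.6 and 64.8, a log2 fold change of -0.89 with an adjusted p of 0.0104. This is 1 of 3 genes, against the same 16.3%.

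Different probes of 1 gene often did not agree. Of the 73 genes, 49 have 2 or more probes. In 13 of them, at least 1 probe passed the mark on all 4 arrays and at least 1 on none. In 10 genes at least 2 probes were tested, and in 4 of these they had the same sign. PTPRC has 4 probes, named here by where they start in the target transcript. The probe at base 3764 carried the signals above. The probe at 4042 gave 73.5 and 70.8 in high-fertile and 82.1 and 72.4 in low-fertile pools, with a log2 fold change of 0.18 and an adjusted p of 0.368. The probes at 1433 and 2330 were well above background on no array. CD3D was bright at the probe at 1341, while the probe at 269 was well above background on no array and the probe at 129 on 2. The second LYZ probe, at 1492, was well above background on no array. CD4 was bright at the probe at 2901, and the probe at 1418 was well above background on no array. Of the 3 CD47 probes, 2 were well above background on no array, as was 1 of the 2 probes of CD5L and of CD9. CD6, CD8B and CD37 have 2 probes each, of which only the brightest was tested.

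CD14, the lipopolysaccharide co-receptor of monocytes, had probes that passed in opposite directions. At 727 it gave 42.6 and 39.8 in high-fertile and 74.0 and 59.5 in low-fertile pools, a log2 fold change of 0.77 with an adjusted p of 0.0168. At 2720 it gave 31.4 and 42.1 against 15.7 and 16.6, with an adjusted p of 0.0153. This probe was not well above background in low-fertile pools and was tested through the high-fertile arrays alone. As measured, it was 2.12-fold lower in low-fertile pools. Its brightest probe, at 1215, gave 48.0 and 53.5 against 63.3 and 62.3 and an adjusted p of 0.111. With the median over its probes, CD14 passed as higher, with a log2 fold change of 0.62 and an adjusted p of 0.0253. On the 2 CD14 probes well above background on all 4 arrays, both low-fertile pools were higher. CD163L1, a scavenger receptor of the WC1 family, found on gamma delta T cells, counted here with the myeloid genes, and with many near-identical copies in cattle, was well above background at all 6 of its probes on all 4 arrays. Its log2 fold changes ran from -1.89 to -0.08, and signal of the family cannot be assigned to 1 copy. CD109, a GPI-anchored protein, was 5.56-fold lower as measured at its second probe. This probe was well above background only in high-fertile pools and was tested through them alone. At its brightest probe, CD109 gave a log2 fold change of -0.44.

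**Figure D4:**
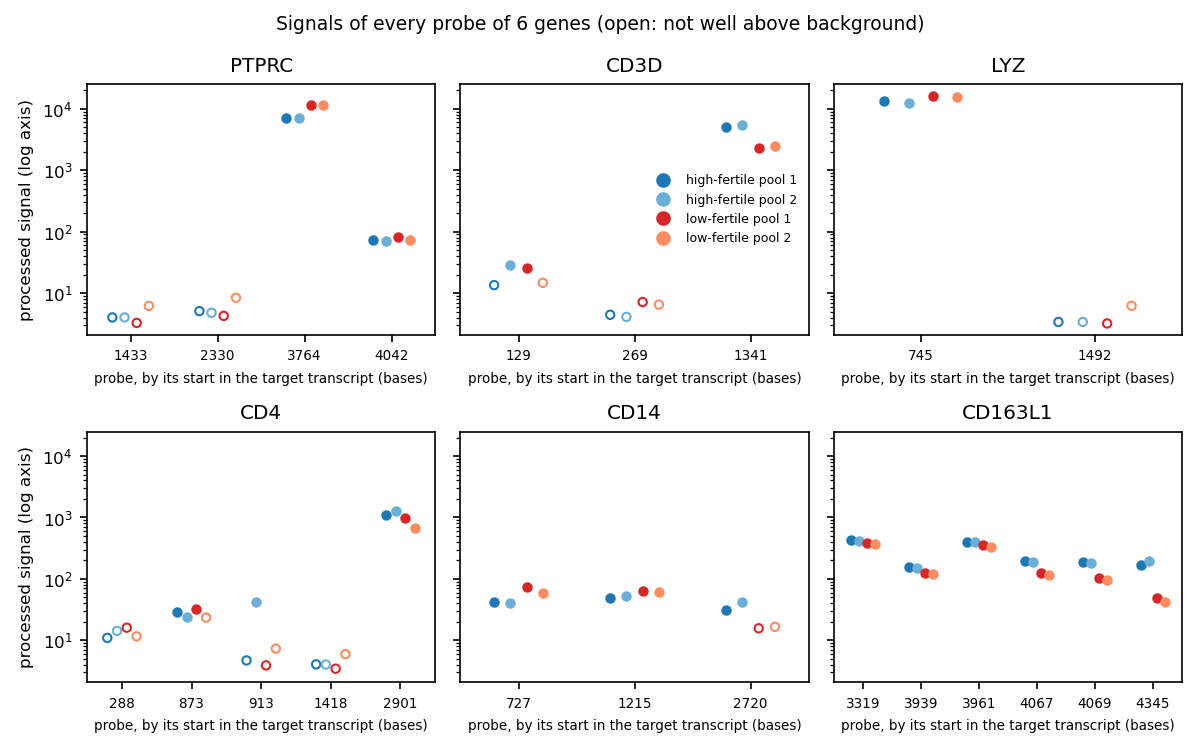
Processed signal (vertical log axis) of every probe of 6 genes, ordered by the probe's start in the target transcript (horizontal axis), in each pool. Filled circles are well above background and open circles are not. PTPRC, CD3D and LYZ have 1 bright probe each and at least 1 probe that is open in every pool, and the CD14 probes at 727 and 2720 differ in direction between the groups.

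The bright probe of PTPRC, shown above, holds a run of alternating T and G near its end. This was examined after the signals were seen. Stretches of 12, 14 and 16 bases were tried, along with 15 motifs picked by eye, among them this repeat at several lengths and parts of the CD3D and LYZ probes. Counts for the motifs picked by eye are given here for the repeat only, because it also stood out by the count of shared stretches. The stretch TGTGTGTGTGTG occurs in 33 probes (0.0644% of all probes), and its reverse complement CACACACACACA in 12. All of the 32 probes besides that of PTPRC were well above background on all 4 arrays. Of these 32, 28 had a positive and 4 a negative log2 fold change, 11 passed as higher and 0 as lower, with a median of 0.40 and a range from -0.50 to 1.05, against 13.2% higher and 9.89% lower, and a median of 0.15, over all probes that had the mark in every pool. Over all tested probes these shares were 9.22% and 17.6%. With the repeat at 14 bases, 16 other probes held it and 10 passed as higher, and at 16 bases 7 held it and 4 passed. Of the 12 probes with the reverse complement, 7 were tested through the high-fertile arrays alone. The other 5 had the mark in every pool, and all 5 passed as lower, with a median of -1.70. The part of the repeat in the PTPRC result was not tested.

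Sharing short stretches was not in itself unusual. At 12 bases the median probe of the array shared its most common stretch with 3 probes of other genes. A run of 16 or more bases was shared with a probe of another gene by 12.8% of all probes and by 21 of the 155 member probes. Among probes well above background on all 4 arrays it was 15.2% of all probes and 12 of 41 member probes, of which 5 are CD163L1 probes. The bright CD3D probe shares 17 bases, in capitals above, with a probe of FAM55D, which had a log2 fold change of -0.81 with an adjusted p of 0.0154, and 16 with a probe of UNCX that was well above background on no array. The bright LYZ probe shares 26 bases, in capitals above, with 1 probe of another transcript, which had 0.28. The brightest CD5L probe shares 30 bases with 1 probe of another transcript, which was well above background on 1 array. The part of these shared runs in the CD3D, LYZ and CD5L signals was not tested.

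The summed signal of the leukocyte-restricted genes, divided by the 75th percentile of each array, was 809 and 793 in high-fertile and 924 and 1015 in low-fertile pools. Without LYZ, PTPRC, CD3D and CD4, left out after their signals were seen, it was 83.0 and 85.7 against 87.4 and 91.5. Before scaling these sums were 3045 and 3180 against 3238 and 2986, so the groups overlapped without the scaling and not with it. Summed over all genes of the array, the scaled signals were also higher in both low-fertile pools, at 186217 and 203231 against 173981 and 177168.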

How the data were processed

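Cy3-labelled cRNA of 4 pools was hybridized to 4 arrays of 1 cattle design. The authors extracted the images with Agilent Feature Extraction 11.5.1.1, and the deposited scanner files hold linear intensity values, background-subtracted within the array. The deposited value table holds log2 signals that the authors shifted by the 75th percentile of each array. It was used as an alternative, and correlated at r = 0.998 with the recomputed values.

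Spots flagged as outliers were removed, log2 signals were averaged by probe, and each array was shifted by the 75th percentile of its non-control probes. For probes with several spots, a mark needed a share of 0.5 or more. A test was made for 21033 probes with the mark in every pool of 1 group or of both, using limma 3.58.1 (R 4.3.3). P-values were adjusted over all of these probes by the Benjamini-Hochberg method, with a threshold of 0.05. The script was tested on simulated data. Tables were joined with Python 3.11.15 and pandas 2.3.3. Of 132 member probes with a RefSeq accession, 130 matched a current symbol, 5 of them a different one. No member was saturated. The number of arrays limits the precision.

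Members and gene lists were chosen with earlier results of these data known. The named genes were those known on spermatozoa, PTPRC, LYZ, CD3E, CD4, CD8A, CD14, CD68, CD79A and CD163, up to 10 rises and 10 falls past the threshold, and genes whose probes passed in opposite directions. Other members were named to account for the list. Values of 1 member that the rule names are not reported here, though it stays in the counts. Alternatives covered background correction, scaling, filters, outlier and patch spots, the gene summary, the test, a pool-number block and each pool left out.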

Additional observations from a re-analysis of the deposited data

How the results depend on the processing

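The pool numbers do not pair the pools (r = 0.00548 over 21024 probes between deviations of same-numbered pools). With the replicate block, 2 members were higher, 4 leukocyte-restricted genes and 0 genes known on spermatozoa passed. Over all probes, 7.89% were higher and 17.5% lower with this block. Against 5 higher and 4 lower members, 7 leukocyte-restricted genes and 1 gene known on spermatozoa in the fit reported, spike-in scaling gave 1 higher and 13 lower members with an overall median of -0.42, where 2.39% of all probes were higher and 34.4% lower. With no filter on dim probes, and with the methods' t-test, all 4 counts were 0, as were the calls over all probes. At an unadjusted p under 0.05, 3 members were higher and 5 lower in the former, where 18.1% of all probes had such a p. In the latter 5 were higher and 5 lower, where 28.9% of all probes had such a p. The deposited table gave 3 higher members and 0 genes known on spermatozoa, where 8.26% of all probes were higher and 17.2% lower. Taking the 75th percentile over the probes with the mark in every pool gave 0 genes known on spermatozoa, and testing those probes alone gave 2. Over all fitted probes, 9.34% were higher and 14.9% lower in the former, and 21.6% and 12.9% in the latter. Leaving out each pool gave 0 to 2 higher and 0 to 3 lower members, 0 to 4 leukocyte-restricted genes and 0 genes known on spermatozoa. Signs of named genes turned only where the gene did not pass. Spike-in scaling lowers every log2 fold change by the same amount (-0.41), which turned 18 of the 47 tested members from higher to lower, among them CD14 (-0.017), CD68 (-0.39), CD79A (-0.32), CD81 (-0.22), CD9 (-0.013) and LYZ (-0.033). Under normexp correction CD68 turned (-0.023). With a pool left out, CD68 ranged from -0.14 to 0.19 and CD81 from -0.012 to 0.40. The cause was not tested. Signals near background, above all in low-fertile pool 2, limit what can be said of the dim members.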
